A study of Rattus norvegicus with 6 samples.

Results

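The interleukin-1 (IL-1) family and the inflammasome sensor Nlrp3 were followed as 10 genes in rat myocardium. The genes were taken by symbol from the 28293 genes of the deposited table, and all 10 were found. They are the ligands Il1a, Il1b, Il18 and Il33, the receptor antagonist Il1rn, the receptor chains Il1r1, Il1rap, Il1r2 and Il1rl1, and Nlrp3. RNA came from the myocardium of male rats labelled WT, with 3 samples in the sham group and 3 in the I/R group. In the I/R group the left anterior descending coronary artery was closed for 30 min and then reopened for 6 h, and the titles of the sham samples carry the same times. The labels do not give the strain, the steps of the sham operation or the part of the heart that was sampled, and they do not tie each sample to its own rat. P-values therefore measure the spread between these samples, which may be technical.

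IL-1 cytokines are alarm signals of injured tissue. IL-1α and IL-1β bind the signalling receptor IL-1R1, which needs the accessory chain IL-1RAcP (gene Il1rap) to signal through MyD88 and NF-κB. The antagonist IL-1Ra (Il1rn) occupies the same receptor without signalling, and IL-1R2 (Il1r2) is a decoy that binds IL-1 but lacks a signalling domain. IL-33 acts through ST2 (Il1rl1) with the same accessory chain, and IL-18 has receptors of its own. Pro-IL-1β and pro-IL-18 are cut by caspase-1, which is activated in inflammasomes such as that built on NLRP3, so an mRNA level says nothing of the amount of active cytokine. In the heart, IL-1 signalling belongs to the early inflammatory reaction to infarction and reperfusion.

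Levels were given in FPKM, a unit that corrects fragment numbers for the size of the gene and for sequencing depth, so that genes are compared per length. The libraries held between 36848184 and 49848438 fragments, as recovered from the steps of the FPKM values. The fragments of a gene are the lowest whole numbers that fit its steps, so a common multiple of them cannot be told apart from them, and the totals and intervals for counting error rest on that reading. The 13 mRNAs encoded by mitochondrial DNA took 80.1% to 86.2% of the summed FPKM in the sham samples and 61.8% to 71.5% in the I/R samples, and a smaller share of these raises the FPKM of every other gene. The tissue label fitted its markers, as each of the 7 cardiomyocyte genes found was present in all samples. Their summed level ran from 3226 to 10524 FPKM in the sham group, highest in sham 1, and from 21184 to 30388 FPKM in the I/R group. Smooth muscle markers summed to 257 FPKM in sham 1, against 83.2 and 59.4 FPKM in sham 2 and 3. A smaller number of cells of a type and less RNA per cell cannot be told apart in bulk tissue. Over all genes tested, the median log2 fold change stood at 0.29, and at −0.46 when each sample was rescaled over the genes that are not mitochondrially encoded mRNAs. Of all calls, 77.6% were higher in the I/R group in the reported fit, 87.3% with TPM, 56.5% with median centring, 48.0% with quantile normalization and 21.7% after that rescaling.

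The IL-1β gene, its antagonist and both IL-1 receptors were higher after I/R, while IL-1α, IL-18, IL-33, ST2 and Nlrp3 overlapped between the groups. The groups were compared with limma on log2(FPKM + 0.1) over the 10942 genes with a mean of at least 0.5 FPKM, and a gene was called at a Benjamini-Hochberg adjusted p under 0.05. Of the 10 genes, 6 passed the filter. Il1b, Il1rn, Il1r1 and Il1r2 were called higher, and Il18 and Il33 were not called. The 4 calls among 6 genes stand beside 25.5% of all genes tested that were called higher, and Il1rn and Il1r2 passed the filter only through their I/R values. The count of genes called lower was 0 in limma, at an unadjusted p under 0.05 and in limma-voom on recovered fragments, beside 7.36% of all genes tested. Il1a, Il1rap, Il1rl1 and Nlrp3 lay under the filter and are given from the fit without it, over 19226 genes, where 11.4% were called higher and 3.32% lower. In that fit the adjusted p of Il1r1 was 0.0567, and Il1b, Il1rn and Il1r2 were the 3 members called.

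Values of the I/R samples lay above all sham values for 5 of the 10 genes, which adds Il1rap to the 4 called. This held for 37.2% of the filtered genes and 23.9% of the genes without the filter. No member had I/R values below all sham values, as 13% and 11.7% of genes did. With 3 samples against 3, the smallest p of an exact permutation test is 0.1, and these 5 genes reached it.

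**Figure D1:**
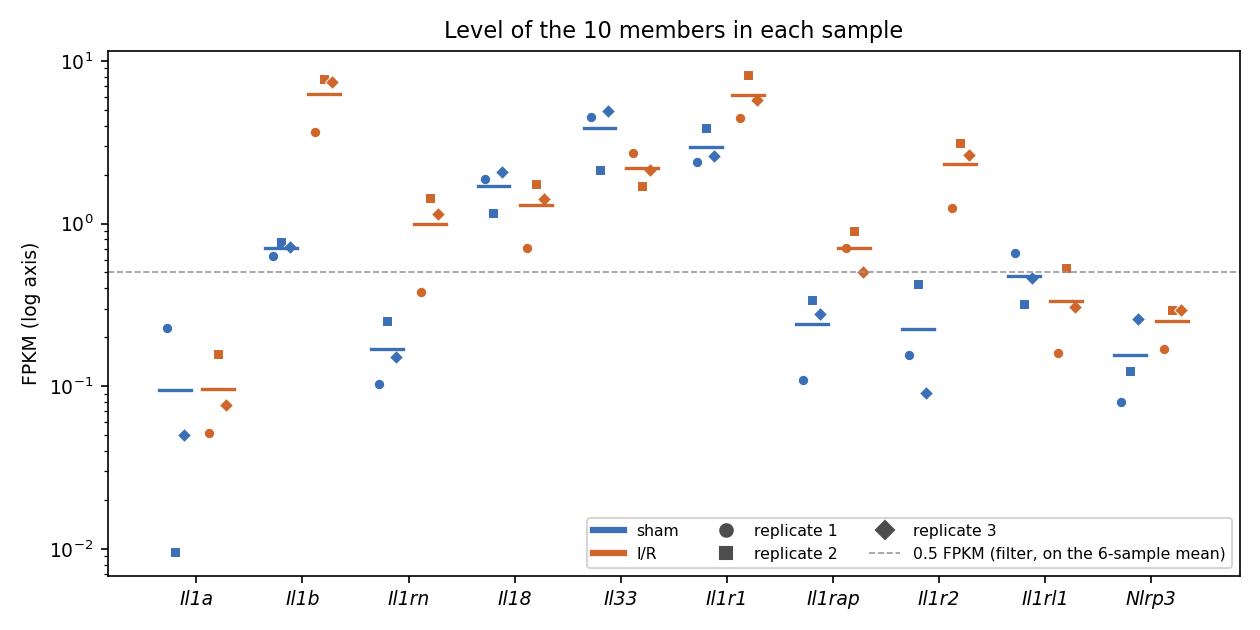
FPKM of the 10 genes on a log axis, with sham samples in blue and I/R samples in orange, marker shapes for the replicate numbers and short lines for the group means (n = 3). The I/R points of Il1b, Il1rn, Il1r1, Il1rap and Il1r2 lie above all their sham points, and those of the other 5 genes overlap.

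Il1b was the ligand gene with the clear rise. Its level was 0.634, 0.773 and 0.715 FPKM in sham 1 to 3, and 3.63, 7.70 and 7.41 FPKM in I/R 1 to 3. The lowest I/R sample lay far above the highest sham sample. The sham mean was 0.707 ± 0.0699 FPKM and the I/R mean 6.25 ± 2.27 FPKM (SD, n = 3 each), an 8.83-fold difference. The log2 fold change was 2.90 ± 0.30 (SE), with a limma adjusted p of 0.00084. The samples held 50, 72 and 64 fragments of Il1b in the sham group and 250, 568 and 515 in the I/R group. Summed per group and set against the library totals, these gave a rate ratio of 8.84, with an exact 95% interval of 7.58 to 10.4 that covers counting error only. Il1b kept its call in every alternative in which it was tested, with log2 fold changes from 2.03 to 3.25.

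Il1a, which lies next to Il1b on chromosome 3 and encodes the other agonist of IL-1R1, was near the limit of detection. It had 0.227, 0.00960 and 0.0499 FPKM in the sham samples and 0.0519, 0.158 and 0.0772 FPKM in the I/R samples. These values rest on 20, 1 and 5 fragments in the sham group and on 4, 13 and 6 fragments in the I/R group, and the groups overlapped throughout. The rate ratio was 1.09, with an exact 95% interval of 0.595 to 1.99 for counting error alone, and it rests on sham 1, which held most of the sham fragments. Without sham 1 the rate ratio was 3.30 (1.31 to 9.91), and without I/R 2 it was 0.727 (0.313 to 1.56). The log2 fold change was 0.12 ± 0.43 (SE), with a limma adjusted p of 0.873 without the filter. Its sign turned in 3 alternatives.

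The stretches before the annotated starts of these neighbours and of Il1rn and Il1r1 are shown because Il1b, Il1rn and Il1r1 rose together and Il1a was not called. They are the 150 bases upstream of the start, 5′ to 3′ on the gene's strand, from RefSeq on build GRCr8, in which 9 of the 10 genes had an entry and Il1r2 did not. Capitals mark matches to the motifs searched on both strands, a TATA box (TATAAA), the AP-1 motif (TGANTCA), the C/EBP motif (TTGCNNAA), the CRE motif (TGACGTCA) and the NF-κB consensus. The windows are chr3:136990018-136990167 on the minus strand (Il1a), chr3:137036582-137036731 on the minus strand (Il1b), chr3:27520172-27520321 on the plus strand (Il1rn) and chr9:50034233-50034382 on the plus strand (Il1r1). All 4 lie outside the annotated transcript, directly before its first exon.
Il1a: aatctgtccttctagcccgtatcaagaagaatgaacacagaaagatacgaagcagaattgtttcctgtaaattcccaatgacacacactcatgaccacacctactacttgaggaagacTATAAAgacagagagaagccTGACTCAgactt
Il1b: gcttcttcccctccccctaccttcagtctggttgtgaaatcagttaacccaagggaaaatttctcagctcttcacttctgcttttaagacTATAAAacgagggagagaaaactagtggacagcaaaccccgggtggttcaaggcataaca
Il1rn: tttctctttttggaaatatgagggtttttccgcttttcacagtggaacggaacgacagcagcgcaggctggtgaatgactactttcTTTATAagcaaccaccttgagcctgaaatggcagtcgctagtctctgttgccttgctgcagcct
Il1r1: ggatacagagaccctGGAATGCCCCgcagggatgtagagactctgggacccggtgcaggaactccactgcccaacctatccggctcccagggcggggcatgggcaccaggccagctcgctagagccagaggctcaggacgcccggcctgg

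In these windows Il1a and Il1b each held a TATA box, 32 and 60 bases before the start, and Il1a also an AP-1 motif 12 bases before it. Il1rn held a TATA box on the opposite strand 64 bases upstream, and Il1r1 an NF-κB match on the opposite strand 135 bases upstream. Over the 250 bases before the start of all 33469 promoters in the table, 12.9% held a TATA box, 6.33% an NF-κB match, 6.34% an AP-1 motif, 9.22% a C/EBP motif and 1.59% a CRE motif. No CRE motif matched before a member, and no matches overlapped each other. A match describes the letters in the window and is not a measured binding site. Among the other members, the NF-κB consensus matched before Il1rap, a TATA box and a C/EBP motif before the downstream of the Il33 starts, and a TATA box far upstream of Il1rl1, while these letters were in no window of Il18 or Nlrp3.

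Il1rn, whose product blocks IL-1R1, rose from a lower level. It had 0.103, 0.253 and 0.152 FPKM in the sham samples and 0.382, 1.44 and 1.15 FPKM in the I/R samples. The I/R samples all lay higher, with I/R 1 well below the others. The sham mean was 0.169 ± 0.0763 FPKM and the I/R mean 0.989 ± 0.545 FPKM (SD, n = 3 each), and the log2 fold change was 1.89 ± 0.52 (SE), with a limma adjusted p of 0.0204. The rate ratio over 50 sham and 234 I/R fragments was 5.77, with an exact 95% interval for counting error that began at 4.24. The call was lost without I/R 2 (adjusted p = 0.0933), I/R 3 (0.0731) or sham 3 (0.0582) in limma, and after rescaling over the genes that are not mitochondrially encoded (log2 fold change 1.30, adjusted p = 0.0898).

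Il18, which encodes the other cytokine that caspase-1 matures, gave no call. Its level was 1.89, 1.16 and 2.08 FPKM in the sham samples and 0.706, 1.76 and 1.42 FPKM in the I/R samples. Only I/R 1 lay below every sham sample. The log2 fold change was −0.42 ± 0.36 (SE), with a limma adjusted p of 0.384. After rescaling over the genes that are not mitochondrially encoded it was −1.15 (adjusted p = 0.0388), while the median of all genes then stood at −0.46.

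Il33, the nuclear alarmin made by stromal and endothelial cells, had the highest mean of the 10 genes in the sham group. Its level was 4.48, 2.14 and 4.94 FPKM in the sham samples and 2.72, 1.71 and 2.12 FPKM in the I/R samples. Sham 2 lay within the I/R range, and the other sham samples above it. The sham mean was 3.86 ± 1.50 FPKM and the I/R mean 2.19 ± 0.509 FPKM (SD, n = 3 each), with a log2 fold change of −0.73 ± 0.33 (SE), with a limma adjusted p of 0.115 and a two-sided exact permutation p of 0.2. With the replicate number as a block, the limma adjusted p was 0.0489, which is a call, but whether the numbers pair the samples is not known. Without the block, the adjusted p was 0.0337 when sham 2 was left out (log2 fold change −1.10). It was 0.00521 after rescaling over the genes that are not mitochondrially encoded (log2 fold change −1.49). The median of all genes tested then stood at −0.46, and 26.1% of them were called lower. The endothelial marker list ran from 173 to 227 FPKM in the sham group and from 170 to 213 FPKM in the I/R group, and the fibroblast list from 420 to 581 and from 605 to 669 FPKM. Their part in the Il33 values was not tested.

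Il1r1, the signalling receptor, had the highest level of the receptor genes in both groups. It measured 2.39, 3.85 and 2.59 FPKM in the sham samples and 4.47, 8.23 and 5.77 FPKM in the I/R samples. Sham 2 was the highest sham sample and came close to I/R 1, the lowest of its group. The sham mean was 2.94 ± 0.790 FPKM and the I/R mean 6.15 ± 1.91 FPKM (SD, n = 3 each), a 2.09-fold difference, with a log2 fold change of 1.03 ± 0.29 (SE), with a limma adjusted p of 0.0223. The call was lost without I/R 2 (adjusted p = 0.0780), sham 1 (0.0629) or sham 3 (0.0778) in limma. It was also lost after centring on the median (log2 fold change 0.78, adjusted p = 0.0667), quantile normalization (0.68, adjusted p = 0.103) and rescaling over the genes that are not mitochondrially encoded (0.26, adjusted p = 0.577).

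Il1r2, the decoy receptor gene, had a log2 fold change within the standard errors of that of Il1b. It was the larger of the pair as reported, and Il1b was the larger with a pseudocount of 1 (2.03 against 1.41), without sham 3 (2.91 against 2.64) and without I/R 2 (2.72 against 2.70). It had 0.155, 0.423 and 0.0911 FPKM in the sham samples and 1.24, 3.12 and 2.62 FPKM in the I/R samples. Each I/R sample lay above each sham sample, and I/R 1 was again the lowest of its group. The means were 0.223 ± 0.176 FPKM and 2.33 ± 0.970 FPKM (SD, n = 3 each), with a log2 fold change of 2.95 ± 0.46 (SE), with a limma adjusted p of 0.0035. Over 44 sham and 366 I/R fragments the rate ratio was 10.3, with an exact 95% interval of 7.49 to 14.4 for counting error, and without sham 2 it was 19.4 (11.6 to 35.0). Il1r2 was called higher in every alternative in which it was tested, with log2 fold changes from 1.41 to 3.50. It stands in a row of 7 genes on chromosome 9 that also holds Il1r1, Il1rl2, Il1rl1, Il18r1 and Il18rap, and of these IL-1 family genes Il1r1 was the other one called.

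Il1rap, the accessory chain shared by IL-1R1 and ST2, showed separated groups without a call. It had 0.110, 0.340 and 0.276 FPKM in the sham samples and 0.711, 0.906 and 0.505 FPKM in the I/R samples. Sham 1 was lowest, and the gap between the groups lay between 0.340 and 0.505 FPKM. The log2 fold change was 1.28 ± 0.39 (SE), with a limma adjusted p of 0.0720 without the filter. It was called after centring on the median (adjusted p = 0.0412) and in limma-voom on recovered fragments (adjusted p = 0.0418), where 13% of all genes without the filter were called higher and 5.5% lower. Gene-level values do not separate the membrane form from the soluble form.

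Il1rl1, the gene of the IL-33 receptor ST2, was low and variable. It had 0.657, 0.320 and 0.460 FPKM in the sham samples and 0.161, 0.536 and 0.306 FPKM in the I/R samples, and the groups overlapped. Its log2 fold change was −0.47 ± 0.42 (SE), with a limma adjusted p of 0.504 without the filter. ST2 is also carried by mast cells, whose 6 marker genes found summed to 48.1, 20.5 and 18.7 FPKM in sham 1 to 3 and to 12.7, 19.6 and 11.9 FPKM in I/R 1 to 3. Sham 1 was thus highest in both the mast cell markers and Il1rl1. Of the 5 mast cell genes tested, Cpa3 and Ms4a2 were called lower and none higher, beside 7.36% of all genes tested that were called lower. Tpsb2, Cma1 and Kit were not called. The part of mast cells in the Il1rl1 values was not tested.

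Nlrp3, the sensor, stayed under the filter in both groups. It had 0.0798, 0.125 and 0.260 FPKM in the sham samples and 0.169, 0.296 and 0.293 FPKM in the I/R samples. Sham 3 lay within the I/R range. Its log2 fold change was 0.51 ± 0.35 (SE), with a limma adjusted p of 0.384 without the filter, and it was −0.01 after rescaling over the genes that are not mitochondrially encoded. The rate ratio over 85 sham and 111 I/R fragments was 1.61, with an exact 95% interval of 1.20 to 2.16 that leaves out the spread between samples, and without sham 3 it was 2.43 (1.66 to 3.63).

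In limma-voom, a log-scale model weighted by the recovered fragments that was chosen after seeing the data, the 4 calls of the filtered fit were the same, with 25.6% of the genes called higher and 8.16% lower. The order of the levels differed between the groups. In the sham group the means fell from Il33 (3.86 FPKM) and Il1r1 (2.94 FPKM), whose ranges overlapped, to Il18 (1.71 FPKM) and Il1b (0.707 FPKM), and then through Il1rl1, Il1rap, Il1r2, Il1rn, Nlrp3 and Il1a, of which each overlapped its neighbour. In the I/R group Il1b (6.25 FPKM) and Il1r1 (6.15 FPKM) overlapped at the top, followed without overlap by Il1r2 (2.33 FPKM). Il33 (2.19 FPKM), Il18 (1.29 FPKM), Il1rn (0.989 FPKM), Il1rap, Il1rl1 and Nlrp3 then followed, each overlapping its neighbour, and Il1a was last.

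**Figure D2:**
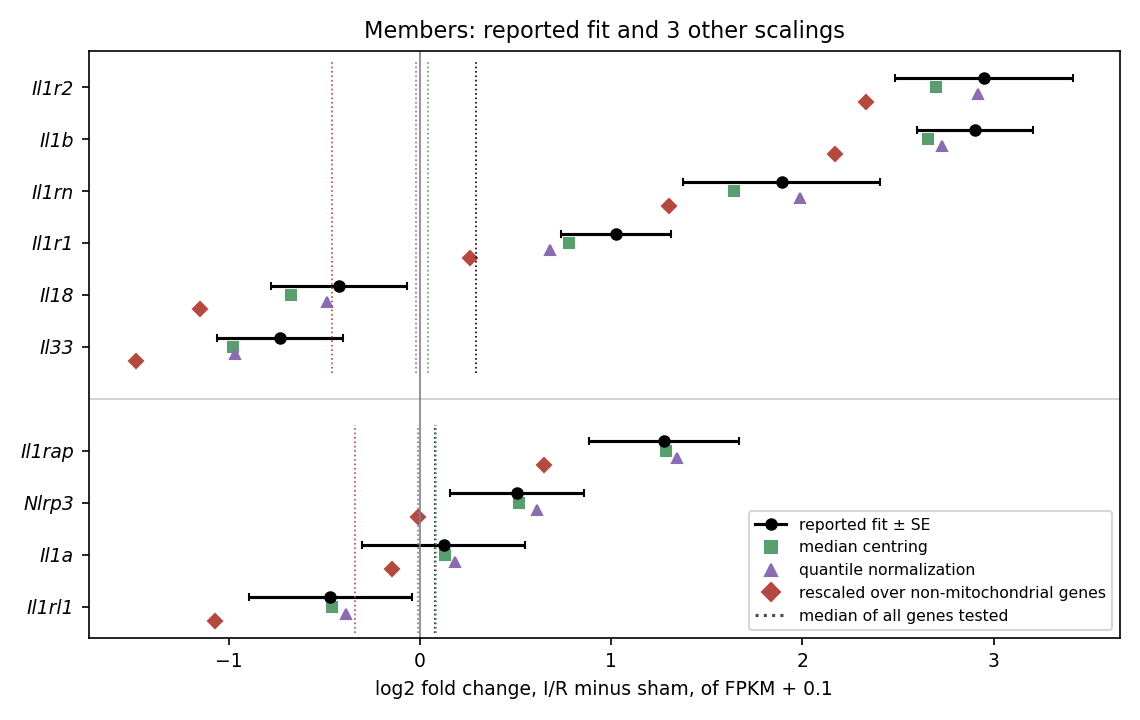
Log2 fold change of each gene, I/R minus sham, on the scale of FPKM + 0.1, as reported with its standard error (black) and under 3 other scalings (coloured), with dotted lines at the median of all genes tested; the 6 genes above the grey line passed the filter and the 4 below it did not. Il1r2 and Il1b stay above 2 in each of these scalings, Il1r1 falls to 0.26 when rescaled over non-mitochondrial genes, and Il33 to −1.49.

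The I/R samples shared an order in the genes called higher, with I/R 1 lowest and I/R 2 highest for Il1b, Il1rn, Il1r1 and Il1r2. Markers of neutrophils and monocytes were higher in their sum after I/R, but not gene by gene. Of their 10 genes, 6 were tested. S100a8, S100a9 and Cd14 were called higher, Ccr2 lower, and Lyz2 and Csf3r were not called. Mpo was at 0 in all samples. Their summed level was 52.1 to 68.8 FPKM in the sham group and 78.9, 131 and 145 FPKM in I/R 1 to 3. I/R 1 was again the lowest I/R sample, but I/R 3 and not I/R 2 was the highest. The macrophage list ran from 47.4 to 51.9 FPKM and from 56.5 to 70.6 FPKM, with C1qb called higher and Cd163 and Mrc1 lower among 8 tested. The pan-leukocyte list, with Ptprc and Coro1a, overlapped at 39.0 to 55.5 FPKM and 40.2 to 45.6 FPKM. Of its 8 genes tested, 0 were called in limma, against 2 lower and 0 higher at an unadjusted p under 0.05 and 1 lower in limma-voom. Lymphocyte markers summed to 6.10 to 8.46 FPKM and 2.62 to 6.90 FPKM, with Cd3g called lower among 3 tested. The limma calls of these marker lists stand beside 25.5% of all genes tested that were called higher and 7.36% lower. In limma-voom 8.16% of all genes tested were called lower. The part of these cells in the IL-1 family values was not tested.

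Ratios between genes within a sample were taken as log2 of (FPKM + 0.1) for 9 pairs. A factor common to a library moves them only through the pseudocount, and quantile normalization moves them too. None could pass an adjusted exact test, since the smallest raw p of 0.1 becomes 0.18 over the 9 pairs. Il1b against Il1rn was 1.85, 1.31 and 1.69 in sham 1 to 3 and 2.95, 2.34 and 2.59 in I/R 1 to 3. With the pseudocount of 0.1 the I/R samples were all higher, by 1.01 in the mean. The mean difference was 0.69 with a pseudocount of 0.01, 0.77 after quantile normalization and 0.87 after rescaling over the genes that are not mitochondrially encoded. The separation depended on the pseudocount, since with 0.01 or none sham 1 lay above I/R 2. Il1b against Il1a rose from a mean of 2.20 ± 0.94 to 4.98 ± 0.40 (SD, n = 3 each) with no overlap at this pseudocount. Il1a lay below 0.1 FPKM in most samples, so this ratio mainly follows Il1b. The mean difference of 2.78 was 2.48 with a pseudocount of 0.01 and 2.03 with 1. Without a pseudocount sham 2, with 1 fragment of Il1a, lay above I/R 1 and I/R 2.

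The mRNA of the decoy gained on that of the signalling receptor. Il1r2 against Il1r1 was −3.28, −2.91 and −3.82 in the sham samples and −1.76, −1.37 and −1.11 in the I/R samples, a mean difference of 1.92 with no overlap (two-sided exact permutation test, p = 0.1), which was 0.56 with a pseudocount of 1. Even so, Il1r1 stayed the higher of the pair in each sample. Il1rap against Il1r1 overlapped, with a mean difference of 0.25 (exact p = 0.5), which was 0.67 after quantile normalization and turned to −0.39 with a pseudocount of 1. Il33 against its receptor Il1rl1 overlapped at a mean difference of −0.26 (exact p = 0.8), and without I/R 2 it was 0.22.

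Il18 stood against Il18bp, which encodes a secreted protein that binds IL-18, at −1.71, −1.37 and −0.39 in the sham samples and at −3.82, −1.92 and −2.20 in the I/R samples. The I/R samples all lay lower. The mean difference was −1.49, and −0.90 without I/R 1. Nlrp3 against Casp1 moved from −4.25 ± 0.32 to −2.42 ± 0.37 (SD, n = 3 each) with no overlap, where the log2 fold change of Casp1 was −1.33 and that of Nlrp3 0.51. The mean difference of 1.83 was 1.13 with a pseudocount of 1. Nlrp3 against Pycard, the gene of the adaptor ASC, overlapped (mean difference 0.65, exact p = 0.4), with 1.08 after quantile normalization and 0.23 with a pseudocount of 1.

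**Figure D3:**
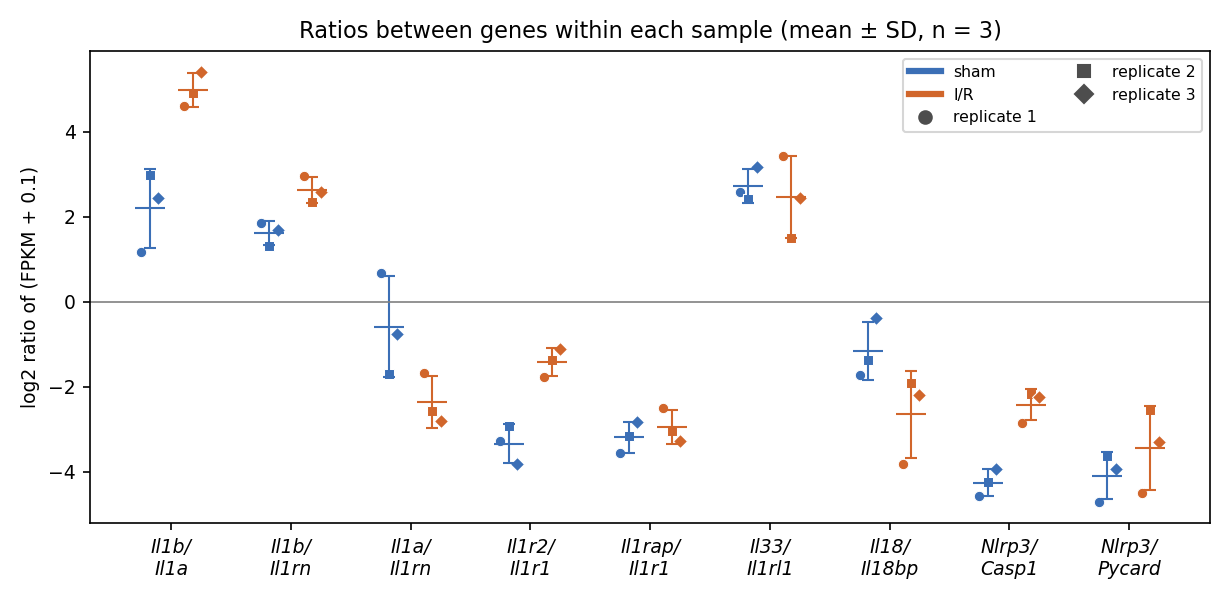
Log2 ratio of (FPKM + 0.1) between pairs of genes within each sample, with sham in blue, I/R in orange, a point for each sample and bars for the mean ± SD (n = 3). The groups do not overlap for Il1b/Il1a, Il1b/Il1rn, Il1r2/Il1r1, Il18/Il18bp and Nlrp3/Casp1, and they overlap for the other 4 pairs. Without the pseudocount they overlap for Il1b/Il1a and Il1b/Il1rn as well.

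The rest of the pathway was read from 4 lists. The first held 12 other genes of the IL-1 family, of which 10 were found by symbol and 2 were tested. Il18bp rose, with 4.11 ± 2.01 FPKM in the sham samples and 8.37 ± 2.54 FPKM in the I/R samples (SD, n = 3 each; log2 fold change 1.07, limma adjusted p = 0.0377), and Il18rap, a chain of the IL-18 receptor, was not called (log2 fold change −0.54, adjusted p = 0.304). The count lower was 0 in limma, at an unadjusted p under 0.05 and in limma-voom. Il36g, Il1f10, Il1rapl2 and Sigirr were listed at 0 in all 6 samples. The call of Il18bp was lost without sham 2 (adjusted p = 0.129), sham 3 (0.136) or I/R 1 (0.117), and under 5 of the other alternatives.

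The next list held 20 genes that carry the IL-1 signal from the receptor to NF-κB or restrain it, so its counts mix both kinds. Of these, 17 were found and 15 tested, with 6 called higher, 2 lower and a median log2 fold change of 0.54. Over all genes tested, 25.5% were called higher, 7.36% lower and the median was 0.29. Nfkb1 and Rela, which encode NF-κB subunits, and Tnip1, which encodes a partner of the inhibitor A20, rose most. Nfkb1 went from 3.81 ± 0.931 FPKM to 11.4 ± 1.65 FPKM (SD, n = 3 each; log2 fold change 1.57, adjusted p = 0.0035, limma). Rela went from 7.28 ± 0.580 FPKM to 15.8 ± 1.33 FPKM (log2 fold change 1.10, adjusted p = 0.0057), and the log2 fold change of Tnip1 was 0.92 (adjusted p = 0.0121). The other 3 called higher, named after their values were seen, were Myd88, Tollip and Tab2. The genes called lower were Irak4, which encodes the first kinase of the pathway (1.54 ± 0.343 FPKM to 0.768 ± 0.0116 FPKM, SD, n = 3 each), and Irak3, which encodes an inhibitory pseudokinase (4.21 ± 1.20 FPKM to 2.37 ± 0.469 FPKM, SD, n = 3 each). After quantile normalization the log2 fold change of Rela was 0.47 (adjusted p = 0.0727) and that of Tnip1 0.23 (adjusted p = 0.312). Rescaled over the genes that are not mitochondrially encoded, none of the 15 was called higher, beside 7.25% of all genes tested. Leaving out sham 3, I/R 2 or I/R 3 left 3 higher, and leaving out sham 2, sham 3, I/R 2 or I/R 3 left 0 lower.

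The list of 21 inflammasome genes sets sensors, the adaptor and caspases beside other genes, such as Ninj1 and Panx1. Its counts therefore mix kinds. Of the 21 genes, 19 were found and 10 tested, with 2 called higher, 3 lower and a median log2 fold change of −0.31. These counts stand beside 25.5% higher, 7.36% lower and a median of 0.29 over all genes tested. Casp1, the protease that matures IL-1β and IL-18, had 4.19, 4.18 and 5.40 FPKM in the sham samples and 1.84, 1.68 and 1.76 FPKM in the I/R samples. Each I/R sample was far below each sham sample, and the log2 fold change was −1.33 ± 0.21 (SE), with a limma adjusted p of 0.0037, a call that stood in all 17 alternatives in which the gene was tested. Casp8 (log2 fold change −1.02, adjusted p = 0.0176) and Casp4 (7.04 ± 2.68 to 3.28 ± 0.290 FPKM, SD, n = 3 each, adjusted p = 0.0339), the genes of further caspases of this pathway, were also lower. Ninj1, which encodes a protein of membrane rupture in dying cells, rose, with a sham mean of 12.7 ± 1.57 FPKM and an I/R mean of 28.9 ± 0.770 FPKM (SD, n = 3 each), and Card19 had a log2 fold change of 1.14 (adjusted p = 0.0195). Both calls were lost after quantile normalization, with log2 fold changes of 0.40 for Ninj1 (adjusted p = 0.157) and 0.67 for Card19 (adjusted p = 0.0750), and after rescaling over the genes that are not mitochondrially encoded, with 0.41 (adjusted p = 0.194) and 0.37 (adjusted p = 0.350). Pycard was not called (log2 fold change −0.14, adjusted p = 0.796). Leaving out sham 2, sham 3 or I/R 3 left 1 gene of the list lower, and leaving out sham 3, I/R 1 or I/R 2 left 1 higher. Under the filter, 2 genes of the list were called in the fit without it and are named after their values were seen. The DNA sensor gene Aim2 had 0.841, 0.572 and 1.07 FPKM in the sham samples and 0.0584, 0.0818 and 0.246 FPKM in the I/R samples (log2 fold change −2.07, adjusted p = 0.0241, limma without the filter). Panx1, which encodes a membrane channel, had 0.138, 0.213 and 0.229 FPKM in the sham samples and 0.866, 0.530 and 0.784 FPKM in the I/R samples (log2 fold change 1.48, adjusted p = 0.0287, limma without the filter). Neither group overlapped the other for these genes. Neither was called with any 1 sample left out, but this says little of these genes. The fit without the filter called 0 genes without sham 2, sham 3 or I/R 2. It called 8 higher and 2 lower without I/R 3, 227 and 31 without I/R 1, and 1458 and 578 without sham 1. The log2 fold changes then ran from −2.41 to −1.85 for Aim2 and from 1.34 to 1.67 for Panx1. The call of Panx1 was also lost with the replicate block (adjusted p = 0.0518, limma). After rescaling over the genes that are not mitochondrially encoded it was lost too (log2 fold change 0.87, adjusted p = 0.171).

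The list of genes that IL-1 is known to induce was drawn up with earlier results of these data known, so its counts describe these genes and are no independent support for a direction. Of the 20, all were found and 17 tested, with 16 called higher, 0 lower and a median log2 fold change of 2.52, beside 25.5% called higher, 7.36% lower and a median of 0.29 for all genes tested. The count lower was also 0 at an unadjusted p under 0.05 and in limma-voom, and 6 of the 17 passed the filter only through their I/R values. Cxcl1, which encodes a neutrophil chemokine, went from 0.590, 0.539 and 0.976 FPKM to 56.0, 99.3 and 102 FPKM, with a log2 fold change of 6.73 ± 0.31 (SE), with a limma adjusted p of 1.25e-05. Il6 was at 0.0290, 0 and 0 FPKM in the sham samples and at 5.12, 6.12 and 8.60 FPKM in the I/R samples. Cxcl2 was at 0.0442, 0 and 0.117 FPKM and then at 6.23, 11.5 and 8.57 FPKM, and for both genes the size of a fitted fold depends on the pseudocount. Nfkbia, the gene of an NF-κB inhibitor, was the 1 tested gene of the list without a call (log2 fold change 0.95, adjusted p = 0.153, limma), and its sham 3 value of 17.2 FPKM stood far below 71.9 and 68.5 FPKM in sham 1 and 2. The count stayed at 16 of 17 when each sample was left out and under each scaling. These genes also answer to other cytokines.

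**Figure D4:**
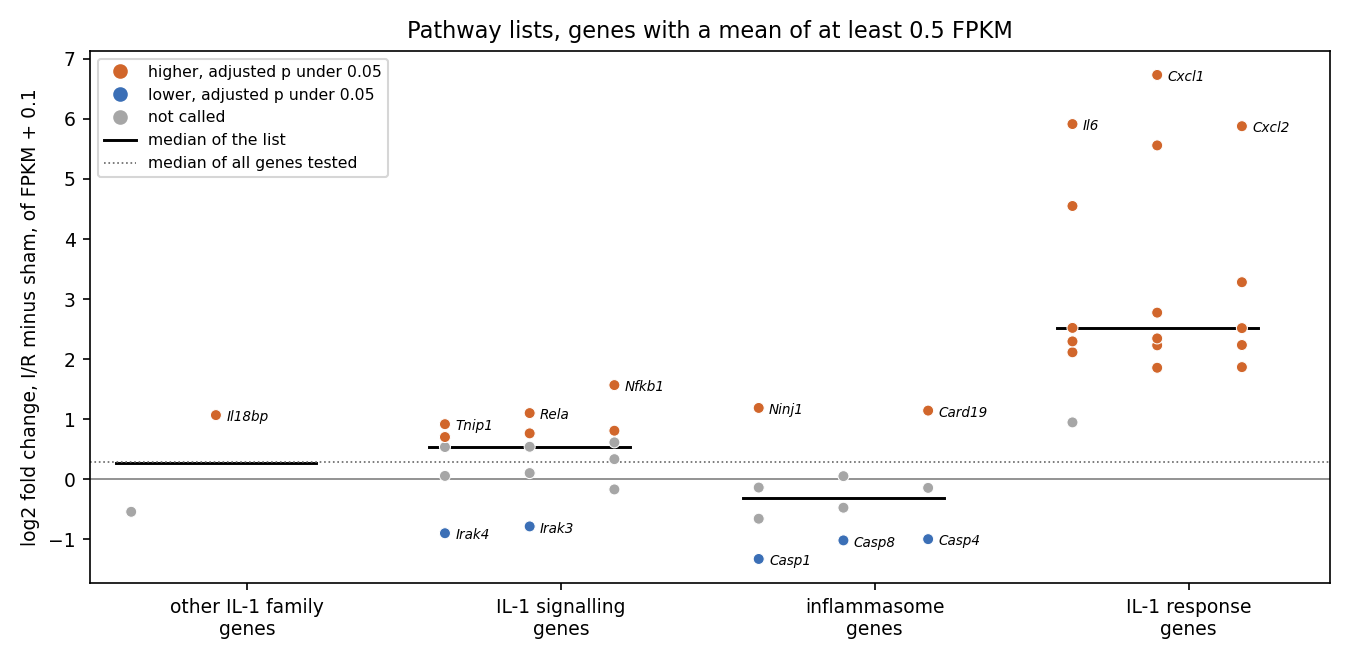
Log2 fold change, I/R minus sham, of the tested genes of the 4 pathway lists, in orange when called higher, blue when called lower and grey when not called, with a black line at the median of each list and a dotted line at the median of all genes tested (0.29). The response genes lie highest, around 2.52, and the inflammasome list spreads to both sides of 0, down to Casp1 at −1.33.

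The genes whose pattern over the 6 samples was most like that of Il1r2 were Stx11, Zfand2a, Il4r, Uap1 and Colec12, with Pearson correlations of log2(FPKM + 0.1) from 0.990 to 0.995. For Il33 they were Nlrc5, Armc9, C4a, Tmem254 and Mal, with correlations from 0.924 to 0.944. These are descriptions over 6 samples in 2 groups that share their library scaling.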

How the data were processed

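Total RNA of rat myocardium (3 sham and 3 I/R samples) was sequenced from stranded libraries. The authors deposited FPKM values, already divided by gene length and library size, in 1 table of 30452 rows. Per the labels, STAR and HTSeq were used, and their versions, the genome build, the annotation and the strand setting are not given in the sources used here, so reads of overlapping or antisense genes cannot be told apart. Rows of one symbol were summed, and 7092 rows without a symbol kept their identifier.

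Log2(FPKM + 0.1) was compared between the groups with limma 3.58.1 in R 4.3.3 (lmFit, eBayes with trend, group only) over the 10942 genes with a mean of at least 0.5 FPKM over the 6 samples, with Benjamini-Hochberg adjustment and calls at an adjusted p under 0.05. Fold changes on this scale understate the change of low genes. Genes under the filter were taken from the same fit over the 19226 genes with a value above 0. Single values and ratios were compared with two-sided exact permutation tests (scipy 1.17.1, Python 3.11.15). The fit was tested on simulated data.

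Whole fragments were recovered from the FPKM steps for 97.3% of the 19481 genes with a value above 0 (tolerance 0.02 of a fragment), as the lowest whole numbers that match (a common multiple cannot be told apart), and the library totals followed from them. Fragments are not independent molecules, so intervals and rate ratios cover counting error only.

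The replicate numbers come from the sample titles. Samples with the same number had deviations from the group means that correlated at 0.203, 0.117 and 0.118 over genes for numbers 1 to 3. A fit with a replicate block was therefore added as an alternative. These correlations are weak, samples with different numbers were not compared, and the titles do not say what a number shares. Whether the numbers pair the samples is therefore not known. Named were all 10 members, the called genes of each list with the 3 largest changes in either direction, genes in a ratio, and the 5 genes most like the members with the highest and lowest log2 fold change. The members and lists were chosen with earlier results of these data known. The alternatives were other pseudocounts, filters and scalings, limma without trend, the block, leaving out each sample, the highest row of each symbol and, chosen after seeing the data, limma-voom on the recovered fragments, rate ratios with each sample left out, and 2 further scalings of the ratios.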

Additional observations from a re-analysis of the deposited data

How the results depend on the processing

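Il1b, Il1r2, Casp1, Cxcl1, Il6 and Cxcl2 kept their direction and their call in each alternative in which they were tested. Over all genes, 1441 were called higher and 1559 lower after quantile normalization, 793 and 2857 after rescaling over the genes that are not mitochondrially encoded, against 2790 and 805 as reported. Centring on the median gave 1554 lower, TPM 504, and a mean of at least 5 FPKM 166. With each sample left out, 1528 to 2557 were higher and 309 to 881 lower, the fewest higher without sham 3 and the fewest lower without sham 2. Of the 6 members tested, the rescaling left 2 called higher (Il1b and Il1r2) and 2 lower (Il18 and Il33). These stand beside 7.25% of all genes tested that were called higher and 26.1% lower in that setting. None of the members reached a mean of 5 FPKM, so 0 were tested at that filter. Leaving out a sample gave 2 to 4 members higher (2 without sham 3 or I/R 2) and 0 to 1 lower. The other IL-1 family genes had 0 called higher with no filter, median centring, quantile normalization, the rescaling and limma without trend, and 0 to 1 with a sample left out. The signalling genes had 3 higher at a mean of 5 FPKM (of 3 tested), 1 after quantile normalization, 0 after the rescaling and 3 to 5 with a sample left out. They had 1 lower with a pseudocount of 1 or limma without trend, 0 with no filter, TPM or the filter at 5 FPKM, and 0 to 2 with a sample left out. The inflammasome genes had 0 higher after quantile normalization or the rescaling and 1 to 2 with a sample left out. They had 5 lower after median centring or quantile normalization, 6 after the rescaling, 1 at a mean of 5 FPKM and 1 to 3 with a sample left out. Of all genes tested, 14.2% were called lower after median centring or quantile normalization, and 26.1% after the rescaling. The response genes had 7 of 8 higher at a mean of 5 FPKM. Signs turned for values that were not called. The log2 fold change of Il1a was −0.15 after the rescaling and −0.21 to 0.57 with a sample left out, below 0 without sham 2 or I/R 2. That of Nlrp3 was −0.012 after the rescaling. That of Pycard was 0.050 with TPM and −0.49 to 0.22 with a sample left out, above 0 without sham 3 or I/R 2. The difference in Il1rap/Il1r1 was −0.39 with a pseudocount of 1, and 0.03 to 0.43 with a sample left out. That in Il33/Il1rl1 was −0.75 to 0.22 with a sample left out. Fewer genes tested is how the filters differ, fewer samples how the left-out fits differ, and the cause was not tested for the other settings.

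With the replicate block, Il33 was called lower (adjusted p = 0.0489, limma), so that 1 member was lower, and Panx1 lost its call (0.0518). Of the 142 member, list and marker genes fitted, 5 calls changed with the block, the other 3 being those of Fpr1, Ttn and Kdr. The value of Il1a in sham 2 rested on 1 fragment.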
